A study of Mus musculus with 40 samples.

Results

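The clustered histone genes encode the linker histone H1 and the 4 core histones H2A, H2B, H3 and H4 that are made in bulk while DNA is copied. They were taken here as every gene symbol in the deposited tables that begins with Hist1h, Hist2h, Hist3h or Hist4h followed by a histone type, which gave 68 symbols of the 23228 listed in all 8 RNA libraries. By type, 6 symbols belonged to H1, 18 to H2A, 19 to H2B, 12 to H3 and 13 to H4. By position in the mouse build mm9, 54 lay in the Hist1 cluster at chr13:21807632-24026720 and 10 in the Hist2 cluster at chr3:96023839-96074115. A further 3 lay in the Hist3 cluster at chr11:58762413-58770176, and Hist4h4 stood alone at chr6:136750074-136752952.

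RNA came from mouse embryonic stem cells of 2 genotypes, each untreated or given 1 uM all-trans retinoic acid (RA), with 2 libraries for each of the 4 groups. The genotypes were wild type and homozygous for a mutation of GLP that the labels call GLP 3A; GLP, the product of Ehmt1, is an enzyme that methylates histone H3 at lysine 9. All 4 groups share the strain background given as C57BL/6 (mixed), growth on feeder cells with serum and LIF (the factor that holds the stem cell state), and 2 passages without feeders in 2i medium. LIF was withdrawn when RA was added, so effects of RA and of LIF withdrawal cannot be told apart, and "with RA" below stands for both. The sources used here do not give how long RA was applied, whether a genotype is 1 clone or whether replicates are separate cultures; the p-values therefore describe no more than the spread among these libraries. The series has 40 samples, of which the 32 chromatin and input samples were not used here.

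Histones package DNA: an H3 and H4 core and H2A with H2B dimers form the nucleosome, and H1 binds the DNA that enters and leaves it. Their clustered genes exist in many copies, are switched on in S phase through NPAT, and mostly give short mRNAs without introns that end in a stem-loop bound by SLBP and lack a poly(A) tail. Some clustered genes can also give longer, polyadenylated transcripts, and single genes outside the clusters encode replacement variants such as H2A.Z and H3.3 that are made independently of DNA replication. The sources used here do not say whether RNA was selected for poly(A) tails or how reads that map to several copies were assigned. Near-identical copies occur among these genes, but sequence identity between members was not measured here. By the gene names in RefSeq, 32 of the 68 symbols, all of H2B, H3 or H4, carry another member's current symbol among their alternative names. This count by names does not measure identity and can miss copies. It holds no H2A symbol, although Hist1h2ap and, in at least 1 library, Hist2h2aa2 share their locus with a second symbol. It also leaves out Hist1h2bq and Hist1h2br of H2B, whose 250 bases before the start of the gene are the same in RefSeq. Reads of near-identical copies may be split between them or dropped, so the level of any 1 of them is uncertain.

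Levels are given in RPKM, reads scaled to the length of the transcript and the size of the library, which allows genes of different length to be set side by side. The clustered histone genes were low in every library. Their summed level was 55.4 and 69.3 RPKM in wild type and 68.8 and 53.3 in GLP 3A without RA, and 74.1 and 88.4 in wild type and 115 and 109 in GLP 3A with RA (values in a sentence are given in the order replicate 1, replicate 2). The 16 replacement variant genes in the tables, from a list of 20, summed to between 2395 and 4085 RPKM per library. Of the 68 members, 10 were listed at 0 in all 8 libraries, 27 were above 0 in 1 to 7 libraries and 31 were above 0 in all 8. A total of 33 stayed under 1 RPKM in every library, and 7 reached 5 RPKM in any. The symbols at 0 throughout are not all at separate loci, as Hist1h2ap, Hist1h4n and Hist2h2aa2 each share their locus with a second symbol. Loci were read from untreated wild-type replicate 1. Hist1h4n and Hist2h2aa2 are each listed with 2 loci between the libraries, so their shared locus need not hold in all of them. Single zeros also occur in high genes, so a listed 0 may not mean absent RNA. Srrt, for example, was at 0 in untreated GLP 3A replicate 1 and at 119 RPKM in replicate 2.

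Facts of the whole data set touch these low levels. The tables hold no read counts; among the 23 members with a locus of 350 to 450 bases the smallest non-zero value was 0.0949 to 0.153 RPKM in the replicate 1 libraries and 0.179 to 0.29 in the replicate 2 libraries. Members at 0 numbered 13 to 17 in the replicate 1 libraries and 18 to 27 in the replicate 2 libraries. Ehmt1 itself was at 18.4 and 17.6 RPKM in wild type and 14.1 and 14.3 in GLP 3A without RA, and 24.4 and 23.5 in wild type and 12.96 and 13.9 in GLP 3A with RA, a difference of level that does not show the mutation itself. All 10 pluripotency markers tested fell with RA in both genotypes, from a summed 5570 to 5686 RPKM per library in wild type and 4764 to 4841 in GLP 3A to 144 to 259 in wild type and 187 to 403 in GLP 3A. In these bulk samples fewer cells of a type and less RNA per cell cannot be told apart.

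H2A and H4 made up most of the untreated histone signal. The highest member of H2A was Hist1h2af (chr13:23625780-23626172 in mm9), with 10.7 and 12.2 RPKM in wild type and 16.6 and 10.04 in GLP 3A without RA, and 9.06 and 6.84 in wild type and 8.42 and 5.26 in GLP 3A with RA. All 4 RA-treated libraries lay below all 4 untreated ones, while the genotypes overlapped in both conditions. The highest member of H4 was Hist1h4i (chr13:22132685-22133221), with 5.67 and 8.39 RPKM in wild type and 8.74 and 7.89 in GLP 3A without RA, and 5.79 and 6.14 in wild type and 9.87 and 6.15 in GLP 3A with RA. Its treated and untreated values overlapped in both genotypes. The next H4 members by mean over the libraries were Hist1h4d at 3.43 RPKM and Hist1h4b at 2.96, and the median H4 member was at 1.29 RPKM, against 0.584 for H1, 0.30 for H2A, 0.295 for H2B and 0.273 for H3.

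H3 was the lowest of the 4 core types and had no member at 5 RPKM in any library. Its highest member, Hist2h3b (chr3:96072617-96073027), gave 0.454 and 1.16 RPKM in wild type and 1.26 and 0.837 in GLP 3A without RA, and 1.37 and 2.40 in wild type and 3.36 and 2.02 in GLP 3A with RA. Every RA-treated library was above every untreated one. Members known as germ cell forms were near or at 0: Hist1h2ba, the testis H2B, was listed at 0 in all 8 libraries, and Hist1h1t, the testis linker histone, did not exceed 0.192 RPKM. Markers of spermatocytes and spermatids summed to 1.46 to 11.3 RPKM per library, with 2 of the 8, Prm2 and Tnp1, at 0 in all. Hist4h4, the only member of its cluster, lay between 0.35 and 0.658 RPKM with no group apart from the rest.

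**Figure D1:**
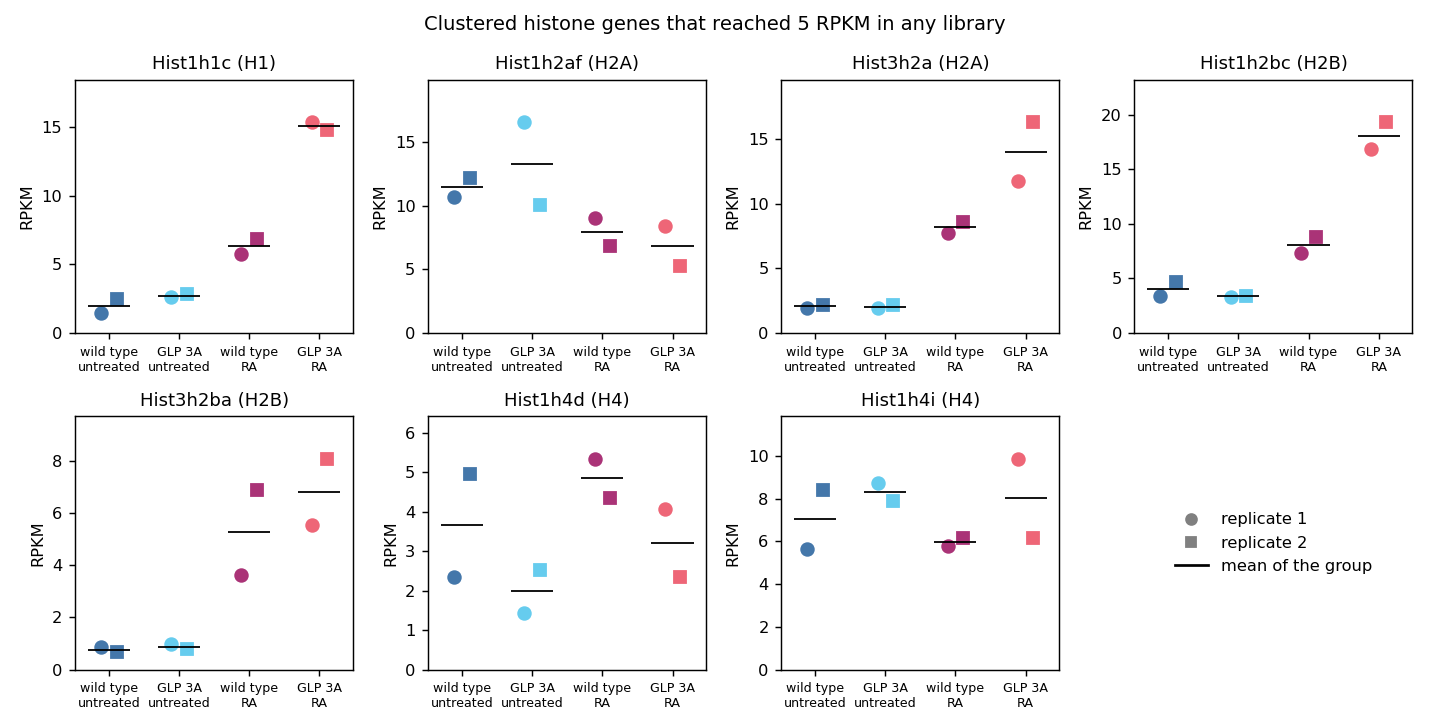
RPKM (vertical axes, linear, from 0) of the 7 members that reached 5 RPKM in any library, in each of the 8 libraries; circles are replicate 1, squares replicate 2 and bars the mean of the 2 libraries of a group. Hist1h1c, Hist3h2a, Hist1h2bc and Hist3h2ba rise from the untreated to the RA-treated groups, Hist1h2af is lower with RA, and Hist1h4d and Hist1h4i overlap.

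How the cells' histone genes responded to RA was asked first in wild type. Genes were tested with limma on log2(RPKM + 1), over all 13198 genes that had at least 1 RPKM in at least 2 libraries, and called at a Benjamini-Hochberg adjusted p under 0.05. Only 30 of the 68 members could be tested: 3 of H1, 5 of H2A, 9 of H2B, 4 of H3 and 9 of H4. Just inside this limit lay Hist1h3g, Hist1h1b and Hist2h2be, whose second-highest library was at 1.04, 1.06 and 1.06 RPKM, and just outside lay Hist1h2an, Hist1h2ai and Hist2h2ac at 0.964, 0.874 and 0.845. In wild type 4 of the 30 rose with RA, against 33.7% of all genes tested, and 1 fell, against 34.8%. The called share of the members, 16.7%, was thus below the 68.5% of all genes. Members were also measured with more scatter, with a median standard error of 0.29 on the log2 scale against 0.12 for all genes.

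In wild type 16 of the 30 tested members had treated and untreated libraries that did not overlap, against 85.7% of all genes. The 4 that rose were 1 linker histone, 1 H2A and 2 H2B genes. Hist1h1c (chr13:23830676-23832236), which encodes a widely expressed somatic H1, was at 1.48 and 2.50 RPKM untreated and 5.79 and 6.85 with RA, which is 1.31 ± 0.17 higher on the log2 scale (SE, n = 2 libraries per group, limma adjusted p = 6.93e-04). Hist1h2bc (chr13:23776068-23784349), an H2B gene, was at 3.40 and 4.70 RPKM untreated and 7.36 and 8.75 with RA, a log2 difference of 0.85 ± 0.15 (limma adjusted p = 0.00266). In both genes each treated library was above each untreated one. Hist3h2a (chr11:58768187-58770176), the H2A gene of the Hist3 cluster, was at 1.92 and 2.19 RPKM untreated and 7.76 and 8.59 with RA, a log2 difference of 1.59 ± 0.16 (limma adjusted p = 2.12e-04). Hist3h2ba (chr11:58762413-58763032), an H2B gene of the same cluster, was at 0.862 and 0.663 RPKM untreated and 3.64 and 6.90 with RA, a log2 difference of 1.78 ± 0.27 (limma adjusted p = 0.00145). Both tested genes of the small Hist3 cluster therefore rose.

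The member that fell in wild type was another linker histone, Hist1h1a (chr13:23855537-23856283), from 1.97 and 1.86 RPKM untreated to 0.577 and 0.454 with RA, a log2 difference of -0.94 ± 0.15 (limma adjusted p = 0.00193). It lies in the same cluster as Hist1h1c, with other members between them, and Hist1h1a and Hist1h1c changed in opposite directions in wild type. In GLP 3A Hist1h1a was at 1.26 and 1.31 RPKM untreated and 1.05 and 0.523 with RA. Its log2 difference there of -0.37 ± 0.15 was not called (limma adjusted p = 0.0714). The difference between the genotypes' responses was 0.57 ± 0.22 and was not called either (limma adjusted p = 0.209). The 25 members not called in wild type ranged from -0.53 (Hist1h2bm) to 0.74 (Hist1h2bj) on the log2 scale.

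In GLP 3A cells 8 of the 30 tested members rose with RA, against 32.3% of all genes, and 1 fell, against 38.1%. The called share was 30% against 70.4%, and 16 of the 30 did not overlap between treated and untreated libraries, against 84.8%. The same 4 genes led. Hist1h1c went from 2.59 and 2.84 RPKM to 15.4 and 14.8, which is 2.11 ± 0.17 higher on the log2 scale (SE, n = 2 per group, limma adjusted p = 9.49e-05). Hist1h2bc went from 3.34 and 3.42 RPKM to 16.8 and 19.3, a log2 difference of 2.12 ± 0.15 (limma adjusted p = 6.02e-05). These 2 genes of the Hist1 cluster ended at similar levels. Hist3h2a went from 1.94 and 2.14 RPKM to 11.7 and 16.3, a log2 difference of 2.29 ± 0.16 (limma adjusted p = 5.1e-05), and Hist3h2ba from 0.99 and 0.786 RPKM to 5.54 and 8.08, a log2 difference of 2.03 ± 0.27 (limma adjusted p = 7.72e-04). The calls of these 4 genes with RA held in both genotypes under all 17 alternative settings that could be run.

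The other 4 members that rose in GLP 3A were low in every library. Hist2h2be (chr3:96025044-96027661), an H2B gene of the Hist2 cluster, was at 0.214 and 0.48 RPKM untreated and 0.965 and 1.64 with RA, a log2 difference of 0.76 ± 0.18 (limma adjusted p = 0.00973). Hist2h3b, whose levels are given above, had a log2 difference of 0.83 ± 0.29 (limma adjusted p = 0.0392). Both lie in the Hist2 cluster, and both were higher in every RA-treated than in every untreated library of either genotype. Hist1h3g, an H3 gene, was at 0.516 and 0 RPKM untreated and 1.04 and 0.881 with RA (log2 difference 0.67 ± 0.23, limma adjusted p = 0.0349). Hist1h1b, a linker histone gene, was at 0.516 and 0.216 RPKM untreated and 0.768 and 0.737 with RA (log2 difference 0.37 ± 0.14, limma adjusted p = 0.0481). These calls depended on the settings: under alternative settings Hist2h2be lost its call in 2 of 16, Hist2h3b in 6, Hist1h3g in 9 and Hist1h1b in 11, with adjusted p up to 0.0598, 0.21, 0.256 and 0.711. Hist2h2be lost it without untreated GLP 3A replicate 1, Hist2h3b without either untreated or the first treated GLP 3A library, Hist1h3g without any RA-treated library or the second untreated GLP 3A one, and Hist1h1b without any library but untreated GLP 3A replicate 1. With the replicate number as a block Hist1h1b was not called either (limma adjusted p = 0.0592). The member that fell was Hist1h2af, with a log2 difference of -0.86 ± 0.28 (limma adjusted p = 0.0326), and its call was lost in 7 of 17 settings (adjusted p up to 0.167), among them those without either untreated wild-type library, untreated GLP 3A replicate 1 or RA-treated GLP 3A replicate 2. In wild type its log2 difference was -0.49 ± 0.28 (limma adjusted p = 0.173).

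**Figure D2:**
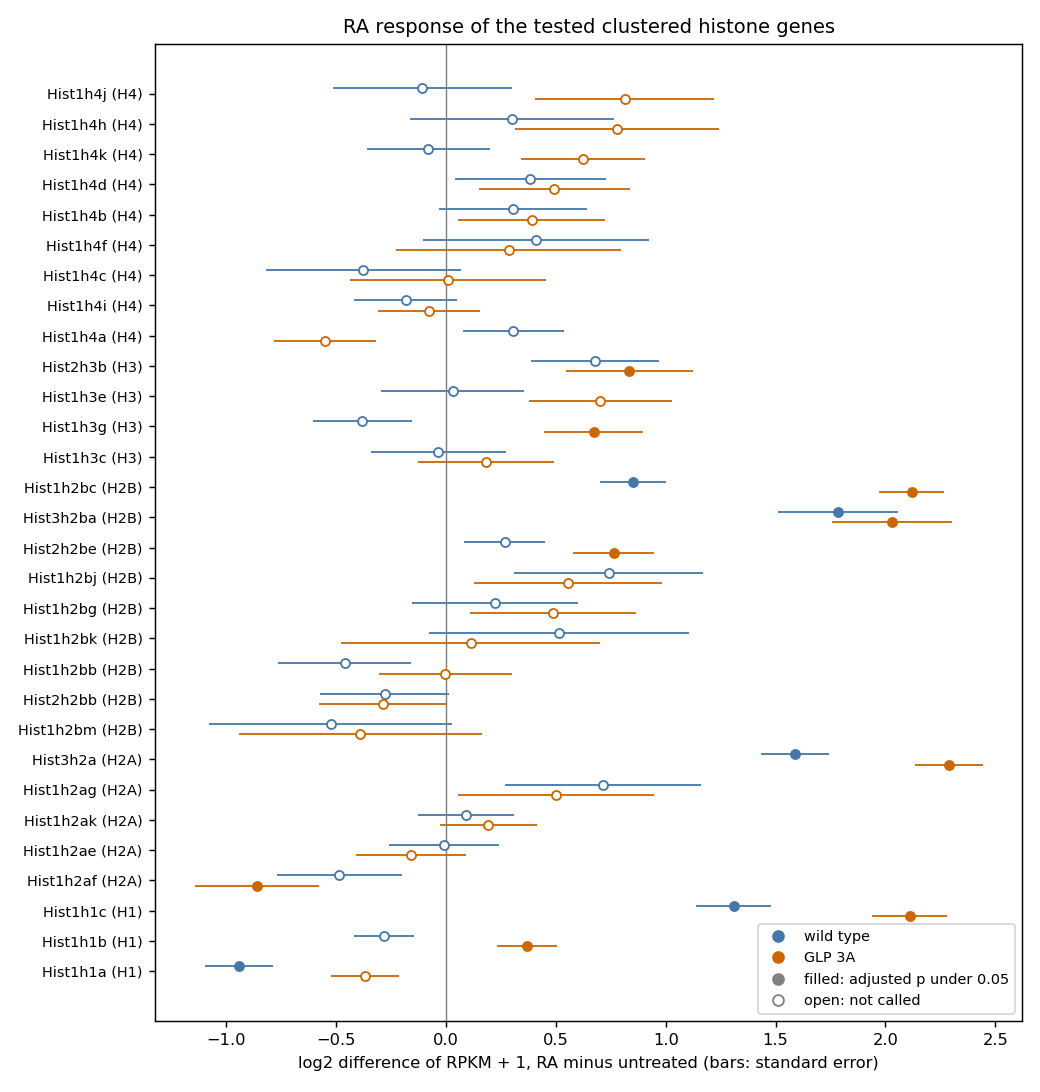
Log2 difference of RPKM + 1, RA minus untreated (horizontal axis), for the 30 members tested, grouped by histone type, in wild type (blue) and GLP 3A (orange); bars are 1 standard error and filled points are called at an adjusted p under 0.05. Hist1h1c, Hist3h2a, Hist1h2bc and Hist3h2ba stand to the right in both genotypes, and Hist1h4a to Hist1h4k have wide bars with no filled point.

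Over both genotypes, 6 of the 30 tested members were higher in every RA-treated than in every untreated library, against 31.5% of all genes tested, and 2 were lower in every one, against 34.6%. The 6 were the 4 leading genes with Hist2h2be and Hist2h3b, and the 2 were Hist1h1a and Hist1h2af. Under the limit for testing, Hist1h2bh showed the same order upward and Hist1h2an downward, at levels of at most 0.794 and 1.31 RPKM. Of the H4 genes 0 were called with RA by limma in either genotype, and 0 had an unadjusted p under 0.05: 9 were tested, their untreated and treated levels ranged up to 9.87 RPKM, and their log2 differences ran from -0.55 (Hist1h4a) to 0.81 (Hist1h4j) in GLP 3A. The median of the tested members was 0.16 in wild type and 0.44 in GLP 3A, beside -0.03 and -0.07 for all genes tested. With quantile normalization it was -0.13 in wild type and 0.11 in GLP 3A, beside -0.057 and -0.046 for all genes tested.

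The starts of these genes were read from RefSeq to see which promoter motifs they share. A window with 250 bases before and 50 after the start was found for 58 members, giving 59 windows. Each was searched on both strands for the exact letters ATTTGCAT, the octamer that OCT1 binds in H2B promoters, TATAAA, which helps to place the start of transcription, and CCAAT, which NF-Y binds; matches of different motifs may overlap. The 250 bases before the start are shown for 3 of the 4 genes that rose with RA and for Hist1h1a, the gene that fell, so that the motifs can be compared; capitals mark the matches (RefSeq, build GRCm38.p6, plus strand, 5′ to 3′).
Hist1h1c (chr13:23738557-23738806): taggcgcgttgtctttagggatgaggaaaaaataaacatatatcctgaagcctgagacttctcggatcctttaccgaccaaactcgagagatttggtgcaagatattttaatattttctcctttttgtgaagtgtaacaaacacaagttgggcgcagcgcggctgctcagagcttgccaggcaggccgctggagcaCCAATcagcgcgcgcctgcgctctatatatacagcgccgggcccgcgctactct
Hist3h2a (chr11:58954435-58954684): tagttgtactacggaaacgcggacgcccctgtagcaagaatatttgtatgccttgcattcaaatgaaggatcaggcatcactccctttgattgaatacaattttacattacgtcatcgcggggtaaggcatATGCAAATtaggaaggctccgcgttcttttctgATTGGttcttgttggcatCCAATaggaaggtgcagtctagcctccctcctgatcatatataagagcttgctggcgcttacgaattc
Hist3h2ba (chr11:58948661-58948910): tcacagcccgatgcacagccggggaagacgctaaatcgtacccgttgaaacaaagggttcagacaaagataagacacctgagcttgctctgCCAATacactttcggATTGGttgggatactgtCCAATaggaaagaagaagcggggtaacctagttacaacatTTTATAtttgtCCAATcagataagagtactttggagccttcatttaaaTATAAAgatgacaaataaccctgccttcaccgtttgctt
Hist1h1a (chr13:23763418-23763667): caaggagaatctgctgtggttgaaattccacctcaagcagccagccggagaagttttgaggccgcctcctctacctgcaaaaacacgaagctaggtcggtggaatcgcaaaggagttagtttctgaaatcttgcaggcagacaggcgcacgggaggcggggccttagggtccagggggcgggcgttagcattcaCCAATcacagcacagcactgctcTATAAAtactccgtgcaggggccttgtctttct
In Hist1h1c the only match is a CCAAT whose first base lies 54 bases before the start (position -54). Hist3h2a has the octamer at -119, written on this strand as ATGCAAAT, and a CCAAT match on each strand. Hist3h2ba has CCAAT and TATAAA matches and no octamer, and Hist1h1a has a CCAAT at -56 followed by a TATAAA at -33. For Hist1h2bc and Hist2h2be no promoter sequence is shown.

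Over the histone genes, the octamer was in 14 of 59 windows, or 23.7%, against 1.74% of the 32817 windows of all genes. It was found in 7 of 15 H2A and 7 of 17 H2B windows and in none of the 6 H1, 10 H3 and 11 H4 windows. Windows of neighbouring H2A and H2B genes can overlap, so the same site may be counted for both. Hist1h2aa with Hist1h2ba, Hist1h2ae with Hist1h2bg, and Hist1h2ah with Hist1h2bk each share an octamer in this way. TATAAA was in 55.9% of the histone windows against 13.6% of all. CCAAT was in 86.4% against 37.4%, and it was present in every H1, H2A, H2B and H3 window but in only 3 of 11 H4 windows. The motif that the 3 genes shown as rising with RA share is CCAAT, which all windows of members other than H4 also hold.

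Summed by type, the ratio of treated to untreated levels was largest in H2B in wild type and in H1 in GLP 3A, and single genes carried these sums. The sums add RPKM over loci of unequal length. The H1 sum was 5.19 and 6.01 RPKM in untreated wild type and 7.47 and 8.64 with RA, and 4.91 and 4.53 in untreated GLP 3A and 18.2 and 17.4 with RA, which is 1.44 times the untreated mean in wild type and 3.77 times in GLP 3A. The H2B sum was 10.99 and 11.7 RPKM in untreated wild type and 18.1 and 24.6 with RA, and 10.8 and 8.63 in untreated GLP 3A and 31.3 and 34.0 with RA, or 1.88 and 3.36 times. In both types every treated library was above every untreated one. Without Hist1h1c the other 5 H1 genes went the other way in wild type, from 3.71 and 3.51 RPKM untreated to 1.69 and 1.79 with RA, and in GLP 3A from 2.31 and 1.69 to 2.82 and 2.60. Without Hist1h2bc and Hist3h2ba the other 17 H2B genes had ratios of 1.23 and 1.43, and treated and untreated libraries overlapped. The ratios were 1.2 and 1.29 for H2A (0.866 and 0.72 without Hist3h2a), 1.08 and 1.77 for H3 and 1.1 and 1.25 for H4. The H4 sum overlapped between treated and untreated libraries, with 18.2 to 25.1 RPKM in untreated and 19.9 to 30.9 in RA-treated libraries.

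**Figure D3:**
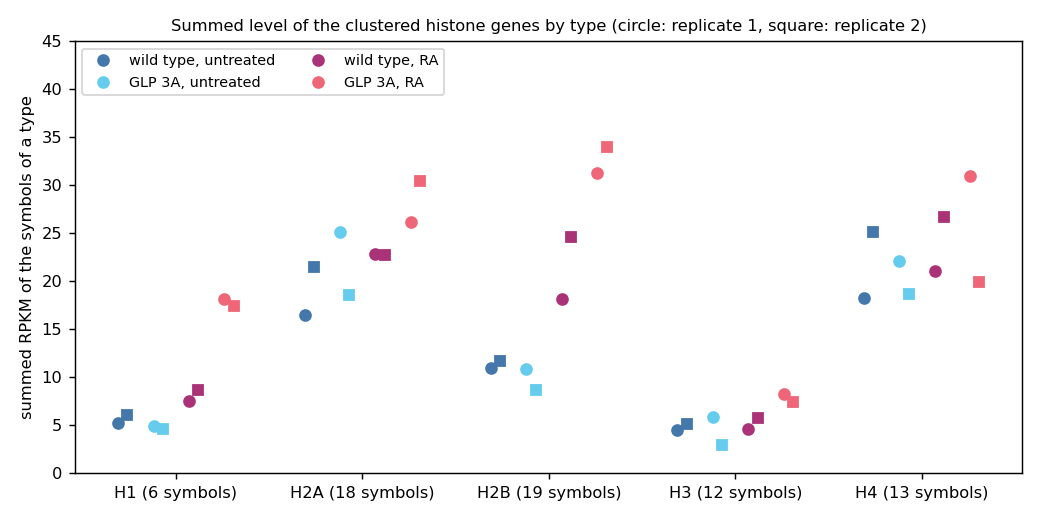
Summed RPKM of all symbols of a histone type (vertical axis, from 0) in each of the 8 libraries; colours are the 4 groups, circles replicate 1 and squares replicate 2. The H1 and H2B sums of the RA-treated libraries lie above those of all untreated libraries, and the H4 sums overlap.

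Most of the rise of the summed level lay in the 4 leading genes. Together they made up 12.9% to 17.2% of the summed histone level in the untreated libraries, and with RA 33.1% and 35.2% in wild type and 43.1% and 53.6% in GLP 3A. The other 64 members summed to 47.7 and 59.3 RPKM in wild type and 59.9 and 44.1 in GLP 3A without RA, and 49.6 and 57.3 in wild type and 65.4 and 50.6 in GLP 3A with RA. These sums overlapped between treated and untreated libraries in both genotypes. As the 4 genes were picked by this response, the split is a description.

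Along the clusters the responding genes stood between low ones, and the closest neighbours of 3 of them stayed low. Hist1h2bc has Hist1h2ac, an H2A gene, 239 bases away, and Hist1h2ac stayed between 0.0835 and 0.395 RPKM in the 8 libraries while Hist1h2bc reached 19.3. Hist3h2a has the pseudogene Hist3h2bb-ps 172 bases away, and Hist3h2bb-ps was at or under 0.715 RPKM. Hist2h2be has Hist2h2ac 276 bases away, which lay between 0.258 and 1.03 RPKM without reaching the limit for testing. Hist2h2be was itself low, between 0.214 and 1.64 RPKM, so the ranges of Hist2h2be and Hist2h2ac overlap.

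**Figure D4:**
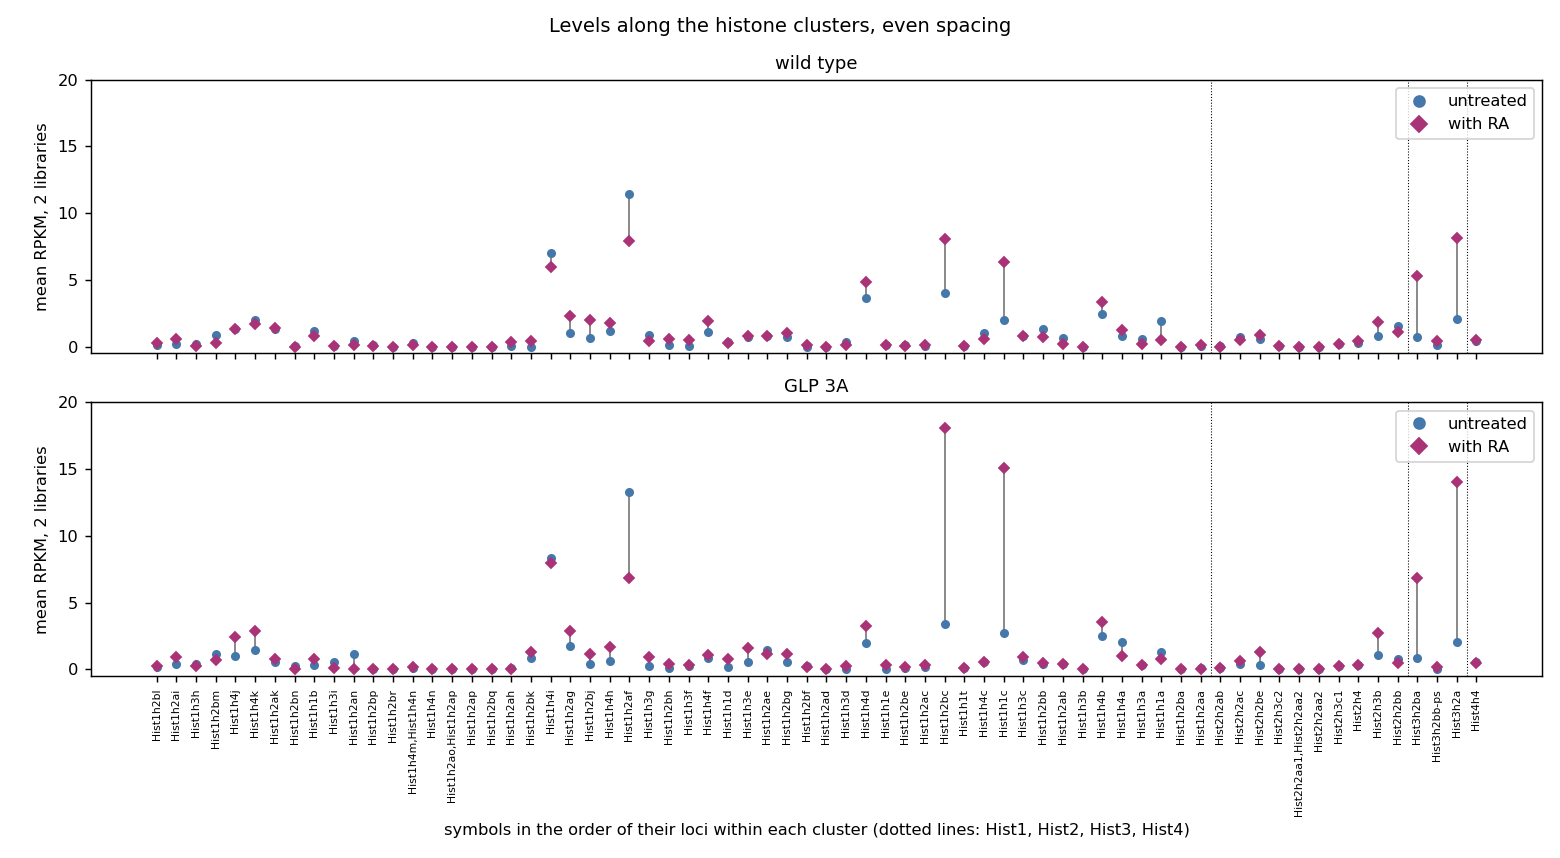
Mean RPKM of the 2 libraries of a group (vertical axis, from 0) for the 68 symbols in the order of their loci within each cluster, evenly spaced; circles are untreated, diamonds RA-treated, in wild type (top) and GLP 3A (bottom), and dotted lines part the clusters. The rises with RA stand at single symbols, Hist1h2bc, Hist1h1c, Hist3h2ba and Hist3h2a, with low symbols between them.

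The members differ in the length their locus is given. Of the 53 members with a locus under 1000 bases, 42 had a length that is a multiple of 3, as coding sequences have. Some of these are longer than others of their type, as Hist1h4i has 537 bases and Hist1h4a 312. The count therefore does not show how many of the 53 were annotated without untranslated ends. The other 15 had a locus of 1000 bases or longer, among them Hist1h1c with 1561 bases, Hist3h2a with 1990 and Hist1h2bc with 8282, whereas the RefSeq genes of Hist1h1c and Hist3h2a span 725 and 508 bases. The long members summed to 9.34 and 11.3 RPKM in wild type and 9.56 and 10.7 in GLP 3A without RA, and 23.6 and 27.3 in wild type and 47.4 and 54.7 in GLP 3A with RA. The short members summed to 46.0 and 58.0 RPKM in wild type and 59.2 and 42.6 in GLP 3A without RA, and 50.5 and 61.1 in wild type and 67.4 and 54.3 in GLP 3A with RA. The sum of the long members was higher in every RA-treated than in every untreated library, and that of the short ones overlapped. Hist1h1c, Hist1h2bc and Hist3h2a made up most of the long sum: without them the other 12 summed to 2.54 and 1.89 RPKM in wild type and 1.69 and 2.33 in GLP 3A without RA, and to 2.71 and 3.12 in wild type and 3.54 and 4.34 in GLP 3A with RA. Taken singly, 4 of the 15 long and 3 of the 53 short members were higher in every RA-treated than in every untreated library. Only 4 of the long and 26 of the short members were tested, and the 4 long ones in this count are those tested. Among the short ones in this count Hist1h2bh was not tested. Of all genes tested, 31.5% were higher in every RA-treated library. The 4 long ones include Hist1h1c, Hist1h2bc and Hist3h2a, which were picked by this response. A locus in these tables can hold several genes, as Hist1h1e and Hist1h2be are both given chr13:23675539-23714427, so it is not the length of a transcript, and the part of annotation in these sums was not tested.

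Whether the GLP 3A mutation altered the histone genes in undifferentiated cells was the next comparison. There 0 of the 30 tested members were higher in GLP 3A, against 7.52% of all genes, and 1 was lower, against 4.15%. Over all genes 993 were higher and 548 lower, and with median-of-ratios scaling 721 were higher and 716 lower (579 and 510 with quantile normalization). With limma 1 member was higher and 4 were lower at an unadjusted p under 0.05. The share of all genes at that limit was not counted, so no direction is read from these counts. The genotypes did not overlap in 11 of the 30, against 68% of all genes. The member called was Hist1h1b (chr13:21871752-21872423), at 1.06 and 1.28 RPKM in wild type and 0.516 and 0.216 in GLP 3A, a log2 difference of -0.67 ± 0.14 (SE, n = 2 per genotype, limma adjusted p = 0.0294). Both GLP 3A libraries were below both wild-type ones, but the call was lost without a filter and without any 1 of the 4 untreated libraries. Leaving out an untreated library also lowered the share of all genes called in this comparison. Of the 4 genes that rose with RA, Hist1h1c differed by 0.34 ± 0.17, Hist1h2bc by -0.19 ± 0.15, Hist3h2a by -0.01 ± 0.16 and Hist3h2ba by 0.10 ± 0.27, and none was called. The remaining members ran from -0.77 (Hist1h2bb) to 0.82 (Hist1h2bk), and the median of the 30 was -0.19, beside 0.04 for all genes.

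With RA, 3 of the 30 tested members were higher in GLP 3A than in wild type, against 5.3% of all genes tested, and 0 were lower, against 5.31% (limma; 0 also at an unadjusted p under 0.05). The called share of 10% was near the 10.6% of all genes, and 9 of the 30 did not overlap between the genotypes, against 51.3%. The 3 were Hist1h1c (log2 difference 1.14 ± 0.17, limma adjusted p = 0.0172), Hist1h2bc (1.07 ± 0.15, limma adjusted p = 0.0152) and Hist3h2a (0.69 ± 0.16, limma adjusted p = 0.0424), all SE with n = 2 per genotype. In each of them both RA-treated GLP 3A libraries lay above both RA-treated wild-type libraries, by 2.38, 2.24 and 1.71 times on the group means of RPKM. Hist3h2ba, the neighbour of Hist3h2a, overlapped between the genotypes (0.35 ± 0.27, limma adjusted p = 0.443). Other tested genes of chromosome 11, 1112 in all, had a median genotype difference of 0.24 with RA and also untreated, beside -0.01 and 0.04 for all genes, and the part of this shift in Hist3h2a was not tested.

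These genotype calls did not hold under all settings. Of all genes tested, 10.6% were called here, 3.43% without a filter and 0.114% with only the libraries compared. Leaving out any library but RA-treated GLP 3A replicate 2 also lowered the share of all genes called. This includes the untreated libraries, which are not part of the comparison. A lost call is therefore not read as dependence on a single library. Over the 17 alternative settings Hist1h1c kept its call in 10 and Hist3h2a in 9, with adjusted p up to 0.125 and 0.231, and Hist1h2bc kept it in 15 (up to 0.15). Without RA-treated wild-type replicate 1 none of the 3 was called, and without RA-treated wild-type replicate 2 or either untreated GLP 3A library only Hist1h2bc was. The sizes moved less, from 1.03 to 1.25 for Hist1h1c, from 0.96 to 1.19 for Hist1h2bc and from 0.47 to 0.92 for Hist3h2a.

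The difference between the RA responses of the genotypes was tested directly as an interaction. It was called for 1 of the 30 members, Hist1h2bc, against 1.8% of all genes tested in either direction and 0.561% upward. The response of Hist1h2bc was larger in GLP 3A by 1.27 ± 0.21 on the log2 scale (SE, n = 2 per group, limma adjusted p = 0.0471). The call was lost in 10 of 16 alternatives, which include leaving out any 1 library but RA-treated GLP 3A replicate 2. Leaving out any untreated library or either RA-treated wild-type library also lowered the share of all genes called for the interaction. The corresponding differences were 0.80 ± 0.24 for Hist1h1c (limma adjusted p = 0.138), 0.70 ± 0.22 for Hist3h2a (limma adjusted p = 0.148) and 0.25 ± 0.39 for Hist3h2ba (limma adjusted p = 0.763), none of them called. Of the 30 members 22 had a positive difference and 8 a negative one, and the median was 0.23, beside -0.06 for all genes. The comparisons share their untreated and treated groups, so these values are not independent of the responses above. Of the 10 pluripotency markers, 3 were higher in GLP 3A than in wild type with RA and 0 lower (median log2 difference 0.92), and the interaction was called for 1 of them, upward (median 1.5). Their part in the genotype and interaction results of the histone genes was not tested.

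Genes that act with the clustered histones mostly fell with RA. The shares of all genes tested to set beside these lists are 34.8% that fell and 33.7% that rose in wild type. In GLP 3A they are 38.1% and 32.3%. Of the 20 S phase genes tested, 17 fell and 0 rose in wild type (median log2 difference -0.92), and 19 fell and 0 rose in GLP 3A (median -1.03; in both genotypes 0 also rose at an unadjusted p under 0.05). The largest falls in wild type were those of the replication helicase genes Mcm5 (-1.24 ± 0.12) and Mcm3 (-1.23 ± 0.11), of Uhrf1 (-1.16 ± 0.13), which links replication to DNA methylation, and of the DNA polymerase gene Pola1 (-1.15 ± 0.09). Of 30 tested genes for histone mRNA transcription and 3′ end processing, 19 fell and 2 rose in wild type and 20 fell and 2 rose in GLP 3A, with medians of -0.44 and -0.56. Among them Ccne1, a cyclin of S phase entry, fell by 1.17 ± 0.06 in wild type, and E2f1, an S phase transcription factor, by 1.13 ± 0.09.

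Slbp and Npat, which fell, were added after their values were seen. So were Lsm11 and Mblac1, the 2 genes that rose among those for histone mRNA transcription and 3′ end processing. Slbp, the stem-loop binding protein, in wild type went from 95.5 and 95.9 RPKM untreated to 61.9 and 79.7 with RA (log2 difference -0.44 ± 0.14, limma adjusted p = 0.0255), and it fell by 0.71 ± 0.14 in GLP 3A. Npat, the coactivator of histone gene transcription, in wild type went from 11.1 and 10.9 RPKM untreated to 8.14 and 7.56 with RA (log2 difference -0.44 ± 0.07, limma adjusted p = 0.00184), and it fell by 0.24 ± 0.07 in GLP 3A. Neither Slbp nor Npat was called between the genotypes (limma adjusted p of 0.255 to 0.809). Lsm11 rose with RA by 0.45 ± 0.08 in wild type and by 0.54 ± 0.08 in GLP 3A. Mblac1 rose by 0.50 ± 0.13 in wild type and by 0.63 ± 0.13 in GLP 3A. Of 25 histone chaperones and import factors, 15 fell and 2 rose in wild type and 17 fell and 1 rose in GLP 3A, with medians of -0.54 and -0.64, led in wild type by Ncl (-1.35 ± 0.09), Set (-1.32 ± 0.14), Atrx (-1.27 ± 0.10) and Hat1 (-1.25 ± 0.07).

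Of 11 replacement variants tested, 5 rose and 4 fell with RA in wild type, where 33.7% of all genes rose and 34.8% fell. In GLP 3A 5 rose and 6 fell, where 32.3% of all genes rose and 38.1% fell. The medians were -0.06 and -0.48. H2afz, which encodes H2A.Z, went in wild type from 1855 and 2097 RPKM untreated to 559 and 737 with RA, and it fell by 1.62 ± 0.16 there and by 2.09 ± 0.16 in GLP 3A. H1f0, a linker histone known from differentiated cells, rose like Hist1h1c, from 24.7 and 23.5 RPKM to 52.1 and 57.5 in wild type (1.15 ± 0.11), and by 1.68 ± 0.11 in GLP 3A. H2afy2, which encodes a macroH2A, rose by 2.40 ± 0.13 and 2.23 ± 0.13, although its locus holds 3 symbols. H2afx, the variant phosphorylated at DNA breaks, was lower in GLP 3A in both conditions, with log2 differences of -0.65 ± 0.08 untreated (limma adjusted p = 0.00568) and -0.72 ± 0.08 with RA (limma adjusted p = 0.00702), with untreated means of 328 RPKM in wild type and 209 in GLP 3A.

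**Figure D5:**
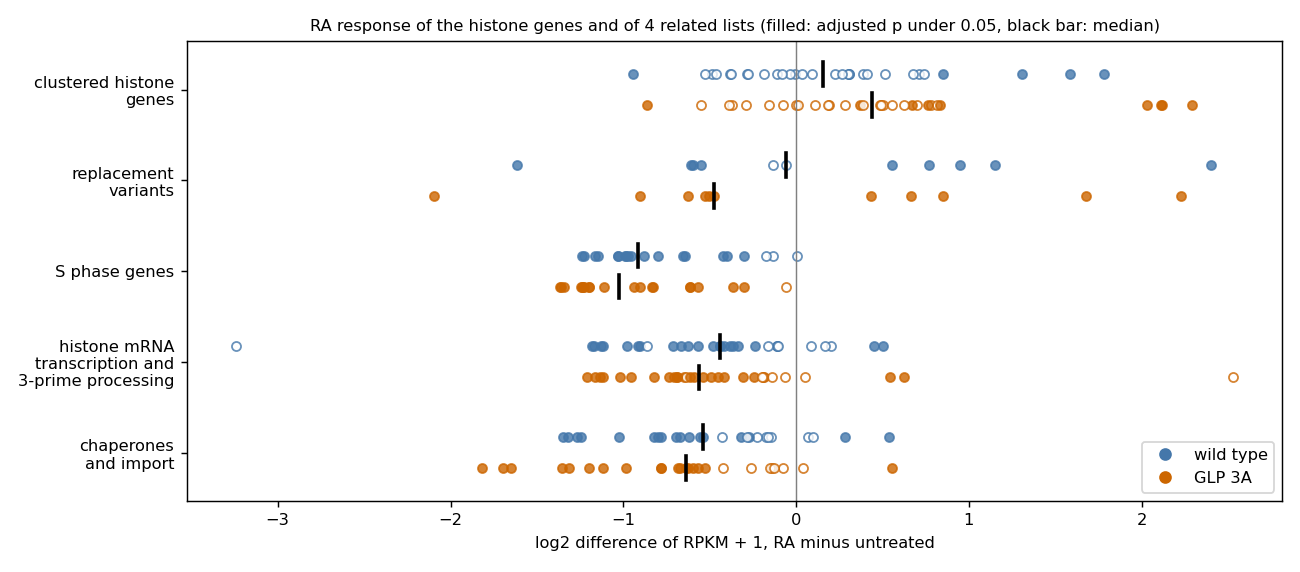
Log2 difference of RPKM + 1, RA minus untreated (horizontal axis), of each tested gene of the clustered histone genes and of 4 related lists, in wild type (blue) and GLP 3A (orange); filled points are called at an adjusted p under 0.05 and black bars are list medians. S phase genes lie almost wholly to the left with medians of -0.92 and -1.03, while the histone genes have medians of 0.16 and 0.44.

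Other values moved with the RA groups beside the histone genes. Markers of feeder fibroblasts, 10 in the list and none at 0 in all libraries, summed to 4.68 to 6.55 RPKM in the untreated and 85.3 to 125 RPKM in the RA-treated libraries, and 6 of 7 tested rose and 1 fell in each genotype. RNAs known to lack a poly(A) tail, 9 in the tables and 3 of them at 0 in all libraries, summed in wild type to 32.95 and 55.7 RPKM in the untreated and 27.0 and 70.1 in the RA-treated libraries (lower library first), and in GLP 3A to 21.4 and 40.2 in the untreated and 21.8 and 30.4 in the RA-treated libraries. In this list 1 of 5 tested, Rnu11, fell with RA in wild type and 0 were called in GLP 3A, by limma and also at an unadjusted p under 0.05. The part of these genes' changes, of the fall of the S phase genes and of the share of polyadenylated RNA in the histone results was not tested.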

How the data were processed

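RNA-seq tables of 8 libraries were used, each giving RPKM per gene symbol and locus. The RPKM values, deposited by the authors and named so per the file headers, were made on build mm9 with TopHat, Cufflinks, SAMtools and Bowtie 0.12.7, per the submitters' processing notes; the sources used here do not state the annotation, the strand or the treatment of reads that map to several places. Locus starts count from 0 in the files and were raised by 1.

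Of 23240 symbols in any file, 12 not in all were left out. Values were tested as log2(RPKM + 1), which understates the changes of low genes, with limma 3.58.1 in R 4.3.3: 4 group means over all 8 libraries, a trend in the prior variance, two-sided, 5 comparisons, with the filter and threshold stated in the report, after checking the script on simulated data. Same-numbered libraries of different groups deviated together (correlations across genes of 0.169 to 0.355 over all pairs of groups), although no label says what a number marks, so values with the replicate number as a block are given where they change a call. Depth is unknown beyond the smallest values given. Alternatives were the pseudocount, the filter, the scaling, the prior trend, a replicate block, only the libraries compared and leaving out each library. Values in every library are given for the highest member of each type, up to 3 called members per type and direction with the largest change in each comparison, and 8 members chosen by name; of each of 8 gene lists up to 4 called and 2 uncalled genes with the largest change could be named. The members and lists were chosen with earlier results of these data known. Promoter windows are from RefSeq, GRCm38.p6.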

Additional observations from a re-analysis of the deposited data

Results flagged for a closer look

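The RA response of Hist1h2bc differed between the genotypes by an interaction test, with a log2 difference of the responses of 1.27 ± 0.21 (SE, GLP 3A minus wild type, n = 2 per group, limma adjusted p = 0.0471). Hist1h2bc rose with RA by 0.85 in wild type and by 2.12 in GLP 3A on the log2 scale, in both of 2 libraries of each genotype. Untreated, the genotypes overlapped at 3.40 and 4.70 RPKM in wild type and 3.34 and 3.42 in GLP 3A. The call was lost in 10 of 16 alternative settings.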

How the results depend on the processing

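Counts of called members and medians of the 30 tested members moved with the settings, while no called member changed direction. The cause was not tested. Percentages in brackets are the shares of all genes tested that were called at the same setting. Untreated GLP 3A against wild type (1 called, 11.7%, median -0.19) gave 0 called without a filter (4.9%). It gave 0 with a filter of 5 RPKM (12.6%, median of members 0.13) and 3 with only the libraries compared (26.1%). The medians were -0.28 to 0.06 when a library was left out. With RA (3 called, median 0.22) the genotype comparison gave 1 without a filter, 0 with only the libraries compared, a median of 0.52 with the filter of 5 RPKM, and 0 to 4 called with medians of 0.03 to 0.34 when a library was left out. For RA in wild type (5 called, 68.5%, median 0.16), only the libraries compared gave 8 (68.2%). The median was 0.30 and 0.22 with pseudocounts of 0.1 and 0.5, 0 without a filter and 1.08 with the filter of 5 RPKM. It was -0.13 with quantile normalization, 0.18 with median-of-ratios scaling and 0.004 to 0.26 when a library was left out. For RA in GLP 3A (9 called, 70.4%, median 0.44), the filter of 5 RPKM gave 5 called (73%) and a median of 2.07. The median was 0.80 with a pseudocount of 0.1, 0.023 without a filter and 0.11 with quantile normalization. It was 0.19 to 0.56 when a library was left out. The interaction (1 called, median 0.23) gave 0 called with a pseudocount of 0.1 (median 0.51), of 0.5 (median 0.29) or no filter (median 0.005), a median of 0.48 with the filter of 5 RPKM, and 0 to 2 called with medians of 0.067 to 0.48 when a library was left out. The log2 ratio of the H1 sum with RA was 0.53 in wild type, 0.57 with median-of-ratios scaling and 0.54 without members that share a locus, and in GLP 3A 1.91 and 2.03 with that scaling. Chosen after seeing the data, leaving the members called higher in both genotypes out of the sums gave log2 ratios in wild type and GLP 3A of -1.06 and 0.44 for H1 (without Hist1h1c), -0.21 and -0.47 for H2A (without Hist3h2a) and 0.30 and 0.52 for H2B (without Hist1h2bc and Hist3h2ba). The replicate block gave 1, 3, 5, 8 and 1 called in the 5 comparisons (13.2%, 12.5%, 70.5%, 72.7% and 1.51%). Of the member calls it changed that of Hist1h1b with RA in GLP 3A (limma adjusted p = 0.0592) and no other. The 38 members under the filter were not tested, and depth is unknown.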
